A study of Mus musculus with 12 samples.

Results

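Collagen genes were described by the structural class of the protein they encode. They were taken as all genes whose symbol is Col, a type number, the letter a and a chain number, which gave 44 of the 43432 genes counted in these nerves. Every one was found by its Ensembl identifier in the GENCODE M21 annotation of GRCm38. The fibrillar class held 11 genes (types I, II, III, V, XI, XXIV and XXVII), the basement membrane class 6 (type IV), the beaded filament class 6 (type VI) and the FACIT class 9, the fibril-associated collagens with interrupted triple helices. A further 4 encode transmembrane collagens, 2 multiplexins (types XV and XVIII), 3 hexagonal network collagens (types VIII and X) and 3 were left as other (*Col7a1*, *Col26a1* and *Col28a1*). Of the 44 genes, 43 passed the filter on low counts and were tested. *Col10a1*, a cartilage growth plate collagen, did not pass and had 0 to 8 counts in any library.

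The data are RNA-seq counts of sciatic nerves at 1 month of age, with 1 nerve of 1 mouse in each of 12 libraries. The 3 groups of 4 mice were WT control (libraries 4497 to 4500), *Mtmr2* KO (4501 to 4504) and *Mtmr2* KO treated with niacin (4505 to 4508). MTMR2 is a phospholipid phosphatase whose loss causes the demyelinating neuropathy Charcot-Marie-Tooth type 4B1, and the knock-out mice carry the null genotype in all cells. Both *Mtmr2* KO groups were -/-, WT mice were wt/wt, and the labels give no treatment for WT or for the *Mtmr2* KO group without niacin, which the study's text describes as given vehicle. Niacin (120 mg/kg) was injected into the peritoneum on days 10 to 21, and a slow-release form was then given by gavage up to day 30. Each group held 3 males and 1 female, and the sex of a single library is not given. The comparisons ask which genes differ in the knock-out nerve and which differ with niacin.

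Collagens are built from 3 chains wound into a triple helix. Fibrillar collagens form the banded fibrils that give a nerve its tensile strength, with types I and III in epineurium and endoneurium and type V inside and at the surface of fibrils. Type IV collagen forms the sheet-like network of basement membranes, which in nerve surround each Schwann cell and axon unit, perineurial cells and vessels. Type VI collagen forms beaded microfilaments next to basement membranes and is made by fibroblasts and, in nerve, also by Schwann cells and macrophages. In whole-nerve RNA, fewer cells of a type and less RNA per cell cannot be told apart.

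Totals ranged from 20763951 to 33191106 counts per library, and expression is in CPM after TMM scaling of library totals, or per kilobase of the principal transcript where genes are compared with each other. Some libraries stood apart in ways that touch collagen values. *Mtmr2* itself was at 128 to 161 CPM in WT, 66.7 to 73.4 CPM with niacin, and 71.5, 84.6, 143 and 69.4 CPM in *Mtmr2* KO, so the library labelled *Mtmr2* KO 4503 was at the WT level. Genes were cut into 5 equal bins of transcript GC content, with each gene's log2 level taken relative to its own mean over the 12 libraries. The median of the GC-richest bin minus that of the GC-poorest was 0.17 to 0.32 in WT and 0.15 to 0.28 in 3 *Mtmr2* KO libraries. It was -0.65 in library 4502 and -0.40 to -0.10 in all 4 niacin libraries. Collagen transcripts are GC-rich and long, with a median GC content of 55.9% against 50.1% for all tested genes and a median length of 5611 against 2792 bases. Values from a fit corrected for GC content and length are therefore given beside part of the main results, though not for every gene or class. The summed level of 8 fibroblast marker genes was 3735 to 4442 CPM in WT, 3036 to 3979 CPM in *Mtmr2* KO and 3487 to 4213 CPM with niacin, and all 8 were above 0 in every library. Most of this sum was *Gsn*, at 2804 CPM of a mean of 4099 CPM in WT. The median of the 8 genes relative to the WT mean (log2) was -0.12 to 0.31 in WT and 0.09 to 0.40 with niacin. In *Mtmr2* KO libraries 4501 to 4504 it was -0.93, -0.23, -1.57 and 0.19. Skeletal muscle markers summed to 10.9 to 83.2 CPM in 10 libraries and to 2992 and 2925 CPM in niacin libraries 4506 and 4507. The part of these differences in the collagen values was tested only through the corrected fit and the fits without libraries.

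Promoter bases are shown for collagen genes that passed the test in a comparison, *Col6a6* and *Col17a1*, with *Col6a5* and *Col6a3* of the same class as *Col6a6*, *Col3a1* as the most abundant collagen and *Col5a3* as the fibrillar gene with the smallest p in both niacin comparisons. Each run is the 120 bases just before the outermost annotated start, 5′ to 3′ on the gene's strand, from RefSeq with GRCm38.p6 coordinates. Capitals mark matches to 3 promoter motifs on either strand. One is TATAAA, where the general transcription machinery can be placed. Another is the CCAAT box, bound by nuclear factor Y, and the last is GGGCGG, the GC box bound by Sp factors.
Col6a6, chr9:105828161-105828280, minus strand: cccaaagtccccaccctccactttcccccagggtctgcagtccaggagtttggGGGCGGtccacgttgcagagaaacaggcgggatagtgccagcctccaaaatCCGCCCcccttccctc
Col6a5, chr9:105960644-105960763, minus strand: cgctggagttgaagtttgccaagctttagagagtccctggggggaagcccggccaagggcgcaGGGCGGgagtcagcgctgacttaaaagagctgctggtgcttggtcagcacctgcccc
Col6a3, chr1:90843972-90844091, minus strand: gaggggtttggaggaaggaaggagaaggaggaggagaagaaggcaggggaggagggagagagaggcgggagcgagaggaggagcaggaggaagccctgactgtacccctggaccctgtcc
Col17a1, chr19:47692095-47692214, minus strand: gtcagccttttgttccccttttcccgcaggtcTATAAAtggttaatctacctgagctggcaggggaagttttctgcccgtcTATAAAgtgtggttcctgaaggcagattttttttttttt
Col3a1, chr1:45311418-45311537, plus strand: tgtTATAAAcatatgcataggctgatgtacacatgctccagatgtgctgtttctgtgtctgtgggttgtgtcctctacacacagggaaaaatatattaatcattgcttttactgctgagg
Col5a3, chr9:20815068-20815187, minus strand: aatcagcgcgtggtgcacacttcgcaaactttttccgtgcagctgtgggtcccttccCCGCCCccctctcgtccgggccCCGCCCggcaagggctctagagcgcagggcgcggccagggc

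TATAAA stood in the *Col17a1* window, 88 and 39 bases before the start, and in the *Col3a1* window 117 bases before it. GC boxes stood in the windows of *Col6a6*, *Col6a5* and *Col5a3*, and none of the 3 letter strings was in that of *Col6a3*. Among 31 collagen genes with such a window (35 of the 44 had a RefSeq entry), 9.68% held TATAAA, 9.68% CCAAT and 45.2% GGGCGG. Among windows of 14590 genes these shares were 5.50%, 25.2% and 35.2%. These matches describe letters only.

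Fibrillar collagens made up most collagen RNA. In WT, all 44 genes summed to 20512 to 31568 CPM, or 2.14% to 3.07% of counts, of which the fibrillar genes took 13999.6 to 22908 CPM. Basement membrane genes summed to 2444 to 3618 CPM, beaded filament genes to 1404 to 2066 CPM, FACIT genes to 769 to 1007 CPM and multiplexins to 718 to 1005 CPM. Summed collagen was 7834 to 22032 CPM in *Mtmr2* KO, with the lowest value in library 4502, and 10778 to 22169 CPM with niacin. The groups overlapped in this sum.

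**Figure D1:**
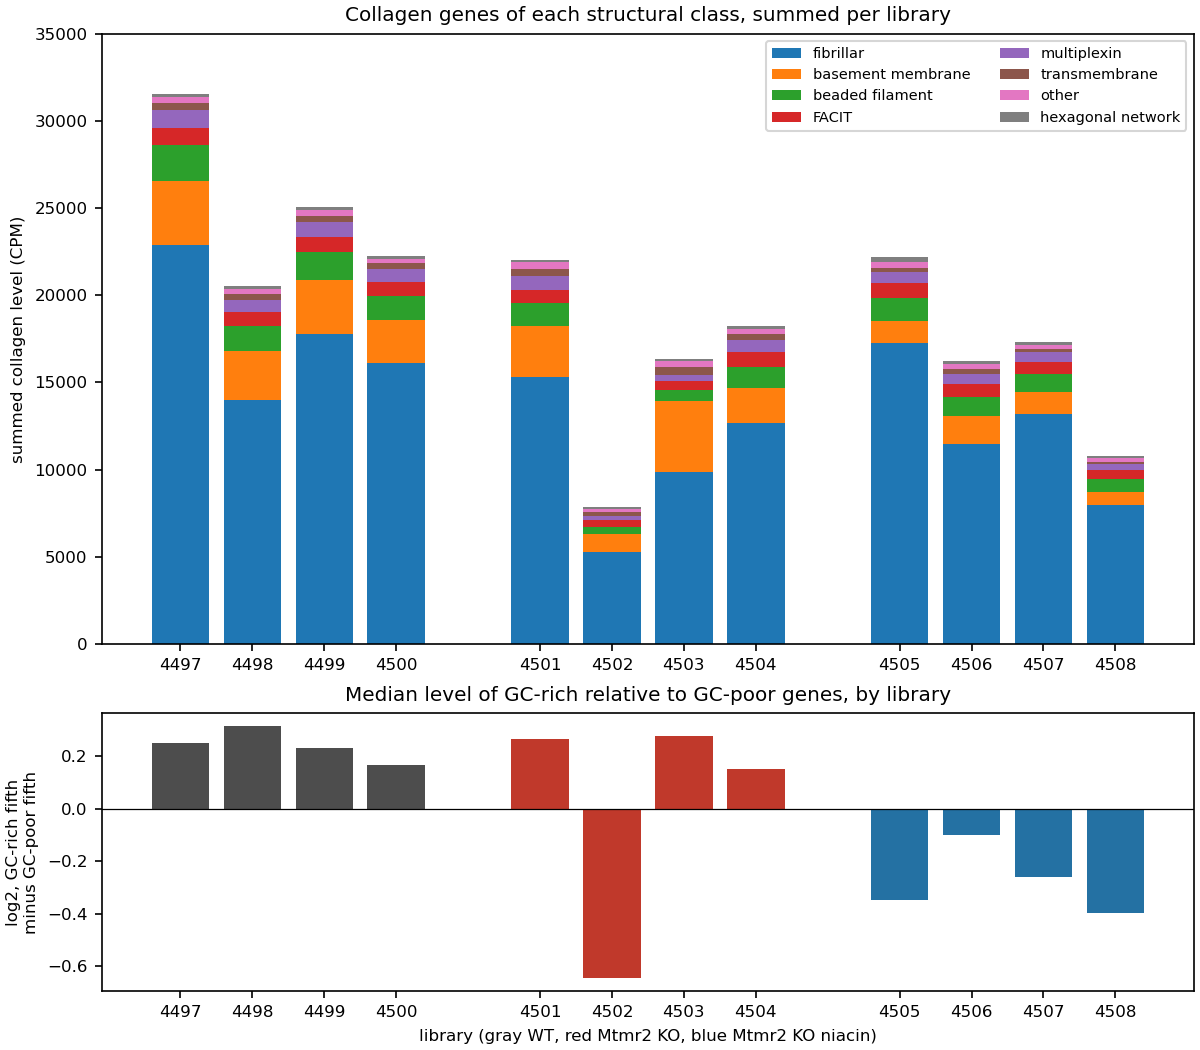
Top, summed CPM of the collagen genes of each structural class in each of 12 libraries (stacked bars). Bottom, the median of the GC-richest of 5 bins of genes minus that of the GC-poorest in the same libraries. Each gene's log2 level was first taken relative to its own mean over the 12 libraries. Fibrillar genes made up most of every bar; library 4502 and the 4 niacin libraries lay below 0 in the lower panel.

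Per kilobase of transcript, *Col3a1* (type III, chr1:45311538-45349706, plus strand) was the most abundant collagen in WT, at 1296 ± 267 CPM per kb (SD, n = 4). *Col1a2* and *Col1a1*, the chains of type I collagen, followed at 897 ± 202 and 552 ± 168 CPM per kb. Next in order were *Col4a1* at 261 ± 43.1, *Col4a2* at 181 ± 31.8, *Col6a1* at 163 ± 27.1, *Col5a3* at 149 ± 17.96 and *Col6a2* at 149 ± 31.2 CPM per kb. *Col4a2*, *Col6a1*, *Col5a3* and *Col6a2* lie within 1 SD of their neighbours, so their order is not resolved. *Col15a1* led the multiplexins at 122 ± 23.3, *Col14a1* the FACIT class at 90.9 ± 16.4, *Col23a1* the transmembrane class at 64.3 ± 5.19 and *Col8a1* the hexagonal network class at 30.8 ± 5.07 CPM per kb. At the low end, *Col4a6*, *Col6a4*, *Col22a1* and *Col10a1* were each at 0.22 CPM per kb or less.

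Several collagen genes are neighbours in the genome. *Col4a1* and *Col4a2* lie head to head on chromosome 8 with starts 21 bases apart, *Col4a3* and *Col4a4* on chromosome 1 with starts 72 bases apart, and *Col4a5* and *Col4a6* on the X chromosome with starts 1309 bases apart. The ratio of *Col4a2* to *Col4a1* (CPM per kb) was 0.695 ± 0.018 in WT, 0.677 ± 0.115 in *Mtmr2* KO and 0.688 ± 0.024 with niacin (SD, n = 4 each), with library 4502 lowest at 0.515. *Col4a6* was far below its neighbour *Col4a5*, with ratios of 0.006 to 0.052. *Col6a1* and *Col6a2* follow each other on chromosome 10, and *Col6a4*, *Col6a5* and *Col6a6* form a row on chromosome 9. The ratio of *Col1a1* to *Col1a2* stayed between 0.514 and 0.678 in all 12 libraries. The ratio of *Col3a1* to *Col1a1* was 2.03 to 2.74 in WT, 1.95 to 3.13 in *Mtmr2* KO and 3.40 to 4.94 with niacin. It was higher in every niacin library than in any other library, a pair chosen after its values were seen, and *Col1a1* has the higher GC content of the pair (58.9% against 52.5%).

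As compared with WT, collagen genes of *Mtmr2* KO nerves were mostly lower in mean level, and the beaded filament class had the lowest median in the fit of all libraries but not without libraries 4502 and 4503. In edgeR, 34 of 43 genes (79.1%) had a lower mean, against 46.0% of all 17257 tested genes, with a median log2 fold change of -0.34 against 0.03 for all genes. Class medians were -0.99 for beaded filament, -0.48 for fibrillar and -0.45 for basement membrane genes, -0.10 for FACIT genes (0.04 with GC content and length corrected) and 0.29 for transmembrane genes. One gene, *Col6a6*, passed an adjusted p of 0.05 and was lower, as 0.220% of all tested genes were, and none passed in the higher direction, as 0.0464% did. At an unadjusted p of 0.05, 14 collagen genes were lower (background 7.90%) and 3 higher (9.35%). For 6 genes all 4 *Mtmr2* KO libraries lay below all WT libraries (background 5.46%): *Col4a5*, *Col6a1*, *Col6a2*, *Col6a3*, *Col6a5* and *Col6a6*. For 1, *Col17a1*, they lay above (background 3.85%). DESeq2 on the 12 libraries called 5 genes lower (background 2.27%), namely *Col4a5*, *Col4a6*, *Col6a3*, *Col6a5* and *Col6a6*, and 0 higher (background 1.50%). Without libraries 4502 and 4503 no collagen gene was called by edgeR, 8 were lower (background 6.16%) and 0 higher (background 3.54%) at an unadjusted p of 0.05, and the median was -0.20. In that fit the beaded filament median was -0.43, and the basement membrane class was the lowest at -0.61. With GC content and length corrected the median was -0.27, and *Col6a5* was called lower beside *Col6a6* (background 0.811%). All 7 adipocyte marker genes also had a lower mean in *Mtmr2* KO than in WT (median -0.48, 1 called lower, background 0.220%) and a higher one with niacin than in *Mtmr2* KO (median 0.72, 0 called). They summed to 3955 to 5118 CPM in WT, 1065 to 7558 CPM in *Mtmr2* KO and 3639 to 7093 CPM with niacin, and the highest sum was in library 4502, which had the lowest summed collagen. Of 8 fibroblast marker genes, 6 had a lower mean in *Mtmr2* KO than in WT (median -0.31). Their median relative to the WT mean (log2) was -0.93, -0.23, -1.57 and 0.19 in libraries 4501 to 4504. The part of adipocytes and fibroblasts in the collagen values was not tested.

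As compared with *Mtmr2* KO without niacin, niacin-treated nerves had class directions that in part depended on the libraries and the correction. Of the 6 beaded filament genes 5 had a higher mean, while 4 of 6 basement membrane genes and all 4 transmembrane genes had a lower one (5, 4 and 3 of these with GC content and length corrected). Without libraries 4502 and 4503, 3 beaded filament genes were higher and 3 lower (median from 0.28 to -0.01), as were 3 and 3 basement membrane genes (median from -0.26 to 0.01), so both class directions were lost, and 3 of the 4 transmembrane genes stayed lower. Fibrillar genes had a higher mean for 4 of 11, for 8 of 11 with the correction and for 1 of 11 without these libraries, with medians of -0.14, 0.15 and -0.35. In edgeR, *Col6a6* was called higher (background 0.695%) and *Col17a1* lower (background 0.730%). At an unadjusted p of 0.05, 4 genes were higher (8.01%) and 11 lower (12.1%). Groups did not overlap for *Col6a6* (higher, background 3.60%) and *Col17a1* (lower, background 3.40%). The median log2 fold change over 43 genes was -0.14, against -0.04 for all genes, and 0.05 with GC content and length corrected. DESeq2 on the 12 libraries called 3 genes higher (*Col6a5*, *Col6a6* and *Col8a1*, background 2.98%) and 4 lower (*Col4a1*, *Col4a2*, *Col16a1* and *Col17a1*, background 3.44%). limma-voom with sample quality weights called 9 lower (background 6.95%). Without library 4502, edgeR called 10 lower (background 13.7%), and *Col6a6* higher (background 9.85%). Without niacin libraries 4506 and 4507, which carried the skeletal muscle RNA, no gene of any kind was called in this comparison by edgeR, and at an unadjusted p of 0.05 it had 3 collagen genes higher (background 4.25%) and 8 lower (background 7.57%).

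As compared with WT, niacin-treated nerves had lower means for 36 of 43 collagen genes (83.7%, against 48.5% of all tested genes), with a median of -0.53 against 0.02. Class medians were -0.80 for the 2 multiplexins, -0.77 for basement membrane, -0.65 for transmembrane, -0.57 for fibrillar, -0.47 for beaded filament and -0.17 for FACIT genes. With GC content and length corrected they were -0.57 for basement membrane, -0.19 for fibrillar, -0.18 for beaded filament and 0.02 for FACIT genes. The basement membrane class was the lowest in that fit. edgeR called 0 collagen genes and 0 genes in all (background 0.00% in each direction). At an unadjusted p of 0.05 it had 19 collagen genes lower (background 14.6%) and 0 higher (background 10.1%). For 20 genes (46.5%) all niacin libraries lay below all WT libraries (background 16.6%), and for none above (background 14.9%). Counts of calls in this comparison differed between fits, over all genes as well as over collagen genes. edgeR on only these 8 libraries called 22 collagen genes lower (background 17.6%), the 12-library fit without library 4502 called 15 (background 12.7%), limma-voom with sample quality weights 24 (background 21.5%) and DESeq2 on the 12 libraries 9 (background 5.97%). DESeq2 called none higher (background 1.59%), and limma-voom called *Col22a1* higher (background 20.8%), a gene at 1.92 CPM or less. With GC content and length corrected the median was -0.19, 7 genes were lower (background 9.36%) and 1 higher (background 8.73%) at an unadjusted p of 0.05 and none was called. The comparisons share libraries, so the 3 sets of values are not independent of each other.

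**Figure D2:**
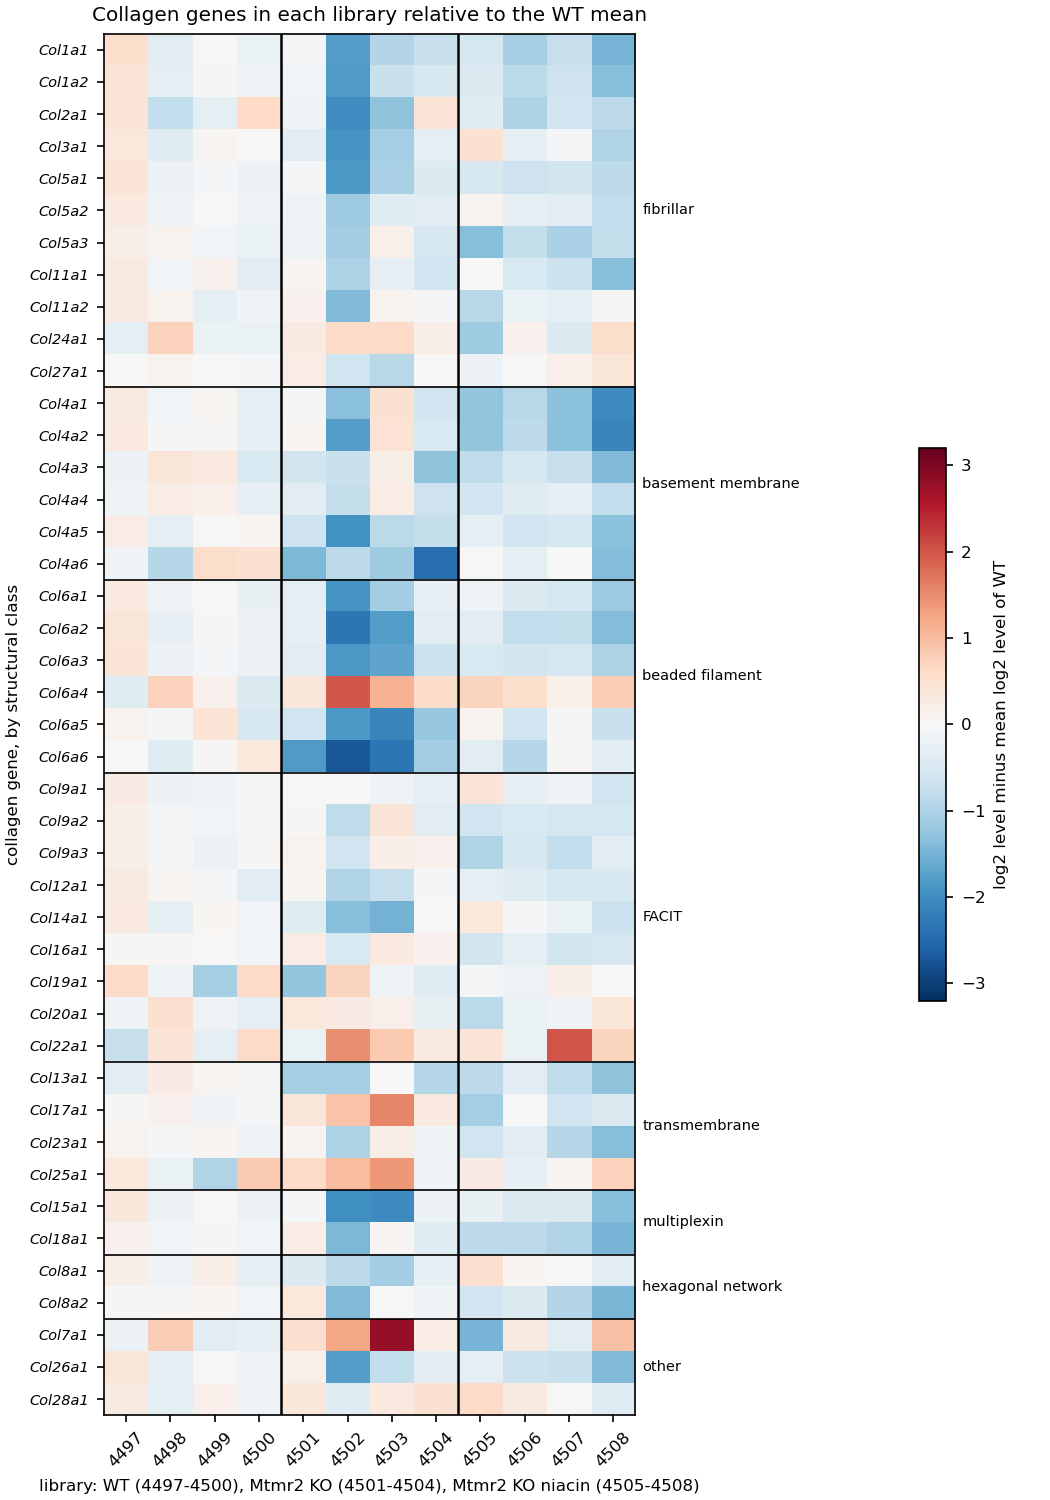
log2 level of the 43 tested collagen genes (rows, by structural class) in each library (columns) minus the mean log2 level of the 4 WT libraries. The median of the beaded filament genes was -1.86 in library 4502 and -1.73 in the library labelled Mtmr2 KO 4503. That of the basement membrane genes was -0.58 or lower in every niacin library, and -0.47, -1.09, 0.21 and -0.71 in Mtmr2 KO libraries 4501 to 4504. Multiplexin and fibrillar medians were also -0.54 or lower and -0.45 or lower in every niacin library.

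Type VI collagen is built mainly from the chains of *Col6a1*, *Col6a2* and *Col6a3*, and *Col6a4*, *Col6a5* and *Col6a6* encode chains that can take the place of the *Col6a3* chain. *Col6a6* (chr9:105687809-105828160, minus strand) was at 19.2, 14.6, 19.8 and 24.2 CPM in WT, 5.39, 2.87, 3.81 and 8.84 CPM in *Mtmr2* KO and 14.8, 10.2, 19.8 and 14.95 CPM in niacin-treated nerves. The *Mtmr2* KO libraries lay below all others, and WT and niacin-treated libraries overlapped. Its log2 fold change in edgeR was -1.90 ± 0.31 (SE, adjusted p = 0.0364) against WT and 1.52 ± 0.30 (SE, adjusted p = 0.0422) with niacin against *Mtmr2* KO, while niacin against WT was -0.38 ± 0.29 (SE, adjusted p = 0.410). Leaving out single libraries of the groups compared kept these first 2 values within -2.27 to -1.71 and 1.30 to 1.89 but changed the calls. The call against WT was lost without any one of the WT libraries 4497 to 4500, the library labelled *Mtmr2* KO 4503 or niacin libraries 4507 and 4508, with adjusted p of up to 0.121. The call with niacin against *Mtmr2* KO was kept without library 4502 or 4504 and lost without any other single library. Without libraries 4502 and 4503 together, *Mtmr2* KO against WT was -1.45 (adjusted p = 0.0884). With GC content and length corrected the differences were -1.81 (adjusted p = 0.0328) for *Mtmr2* KO against WT and 1.67 (adjusted p = 0.0238) for niacin against *Mtmr2* KO. In the exact permutation test p was 0.0286 in both, the smallest that 4 against 4 libraries can give. Groups that do not overlap give this p, as 5.46% of all tested genes did for *Mtmr2* KO below WT. For niacin above *Mtmr2* KO the share was 3.60%. *Col6a6* was picked by its call in the same libraries, so this p is not independent of that call. Of the 8 fibroblast marker genes, 6 had a lower mean in *Mtmr2* KO than in WT (median -0.31, 1 lower at an unadjusted p of 0.05, background 7.90%). With niacin 7 of the 8 had a higher mean than in *Mtmr2* KO (median 0.92, 5 higher at an unadjusted p of 0.05, background 8.01%). Among them *Dpt* was at 43.1, 87.7, 16.1 and 184 CPM in *Mtmr2* KO against 109 to 246 CPM in WT and 121 to 229 CPM with niacin. All 5 macrophage marker genes also had a higher mean with niacin than in *Mtmr2* KO (median 0.33, 2 at an unadjusted p of 0.05). So had all 5 marker genes of cycling cells (median 1.08, 5 at that p). In *Mtmr2* KO against WT, 3 macrophage markers had a higher mean (median 0.09) and 4 cycling markers a lower one (median -0.35). The part of fibroblasts, macrophages and cycling cells in the *Col6a6* values was not tested.

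Its neighbour *Col6a5* (chr9:105856078-105960643, minus strand) was at 22.4, 20.03, 28.2 and 14.3 CPM in WT, 13.2, 5.69, 4.67 and 8.84 CPM in *Mtmr2* KO and 22.4, 13.3, 20.1 and 12.5 CPM in niacin-treated nerves. All *Mtmr2* KO libraries lay below all WT libraries, and the niacin-treated libraries overlapped both groups. The log2 fold change was -1.39 ± 0.31 (SE, adjusted p = 0.0684) for *Mtmr2* KO against WT and 1.08 ± 0.31 (SE, adjusted p = 0.0931) for niacin against *Mtmr2* KO, neither of which passed. The third gene of the row, *Col6a4*, was at 0.239 to 0.646 CPM in WT and 0.487 to 1.66 CPM in *Mtmr2* KO, where the groups overlapped.

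Per kilobase, the 3 main type VI genes were far above *Col6a5* and *Col6a6* in WT, at 37.1 or more against 2.29 and 2.21 CPM per kb. *Col6a1* was at 820.3, 613, 668 and 564 CPM in WT, 543, 179.6, 307 and 550.2 CPM in *Mtmr2* KO and 587, 475, 443 and 295 CPM in niacin-treated nerves. *Col6a2* was at 758, 485, 591 and 511 CPM in WT, 467, 115, 168 and 457 CPM in *Mtmr2* KO and 450.4, 336, 341 and 219 CPM in niacin-treated nerves. *Col6a3* was at 445, 288, 313 and 290.2 CPM in WT, 259, 92.5, 102 and 203 CPM in *Mtmr2* KO and 236, 219.6, 227 and 163 CPM in niacin-treated nerves. In each of the 3, *Mtmr2* KO and WT libraries did not overlap, and libraries 4502 and 4503 were the lowest of all 12 for *Col6a2* and *Col6a3*. The log2 fold changes against WT were -0.75 ± 0.31 (SE, adjusted p = 0.235), -0.96 ± 0.39 (SE, adjusted p = 0.226) and -1.03 ± 0.29 (SE, adjusted p = 0.118) for *Col6a1*, *Col6a2* and *Col6a3*. None passed in edgeR, and without libraries 4502 and 4503 they were -0.28, -0.34 and -0.53. Niacin-treated nerves differed from *Mtmr2* KO by 0.19 ± 0.31, 0.16 ± 0.38 and 0.36 ± 0.29 (SE), with adjusted p of 0.765, 0.850 and 0.506. All 3 turned without libraries 4502 and 4503, to -0.29, -0.47 and -0.14. Against WT, niacin-treated nerves had a lower mean for all 3, by -0.80 to -0.57, with a smallest adjusted p of 0.187 in edgeR. For *Col6a2* and *Col6a3* all niacin libraries lay below all WT libraries (background 16.6%), while *Col6a1* overlapped. Over 24 alternative fits these values ran from -0.73 to -0.21, -0.98 to -0.36 and -0.77 to -0.34 for *Col6a1*, *Col6a2* and *Col6a3*.

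**Figure D3:**
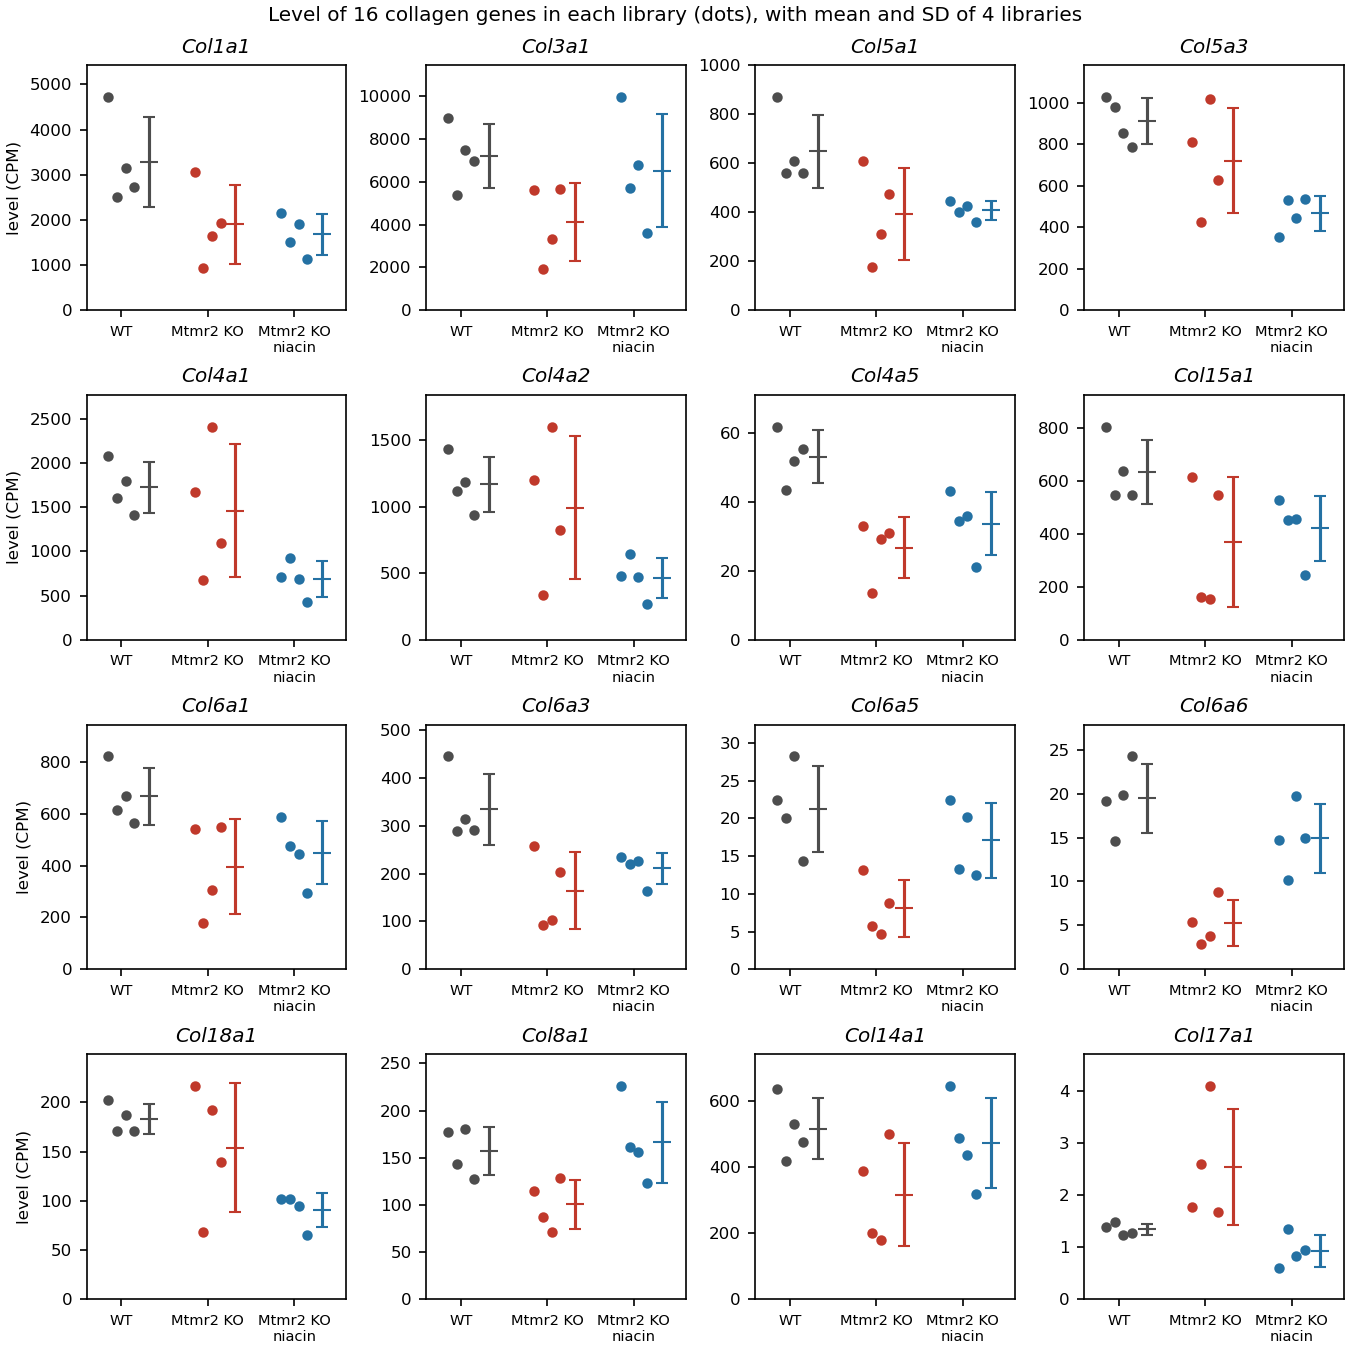
Level in CPM of 16 collagen genes in each library (dots; gray WT, red Mtmr2 KO, blue niacin-treated Mtmr2 KO), with the mean and SD of 4 libraries as a bar beside them. The 4 Mtmr2 KO libraries lay below all others for Col6a6. The 4 niacin libraries lay below all WT libraries for Col1a1, Col5a1, Col5a3, Col4a1, Col4a2, Col4a5, Col15a1, Col6a3 and Col18a1.

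Among the fibrillar collagens, *Col1a1* (chr11:94936224-94953042, plus strand) was at 4717, 2510.2, 3143 and 2721 CPM in WT, 3068, 942, 1647 and 1929 CPM in *Mtmr2* KO and 2149.8, 1518, 1911 and 1130.2 CPM in niacin-treated nerves. *Col1a2* was at 6279, 3771, 4830.1 and 4314 CPM in WT, 4398, 1342, 2892 and 3296 CPM in *Mtmr2* KO and 3446, 2599.7, 2978 and 1821 CPM in niacin-treated nerves. For both type I chains, all 4 niacin libraries lay below all WT libraries, while *Mtmr2* KO overlapped WT through library 4501. *Mtmr2* KO differed from WT by -0.79 ± 0.33 (SE, adjusted p = 0.240) for *Col1a1* and by -0.69 ± 0.32 (SE, adjusted p = 0.285) for *Col1a2*, and without libraries 4502 and 4503 by -0.39 and -0.32. Niacin-treated nerves differed from WT by -0.96 ± 0.33 (SE, adjusted p = 0.126) and -0.82 ± 0.32 (SE, adjusted p = 0.154) and from *Mtmr2* KO by -0.18 ± 0.33 and -0.14 ± 0.31. With GC content and length corrected, the differences between niacin and WT were -0.47 and -0.46. Those between niacin and *Mtmr2* KO turned to 0.15 and 0.11 with the correction and were -0.59 and -0.52 without libraries 4502 and 4503.

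*Col3a1* did not share that order. It was at 8983, 5384, 7476 and 6991 CPM in WT, 5612, 1931, 3311 and 5666 CPM in *Mtmr2* KO and 9965, 5699.5, 6797 and 3609 CPM in niacin-treated nerves. Niacin library 4505 held the highest level of all 12 and *Mtmr2* KO library 4502 the lowest. The log2 fold changes were -0.80 ± 0.36 (SE, adjusted p = 0.271) for *Mtmr2* KO against WT, 0.66 ± 0.36 (SE, adjusted p = 0.321) for niacin against *Mtmr2* KO and -0.15 ± 0.36 (SE, adjusted p = 0.818) for niacin against WT. Without libraries 4502 and 4503 the first was -0.35 and the second 0.20, and with GC content and length corrected the third turned to 0.09.

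Type V collagen starts fibrils and sets their width, and its *Col5a3* chain is the one known from Schwann cells. *Col5a1* was at 870.4, 561, 608 and 559 CPM in WT, 609.5, 177, 310.3 and 475 CPM in *Mtmr2* KO and 446, 402, 427 and 358 CPM in niacin-treated nerves. *Col5a2* was at 876, 626, 714 and 636 CPM in WT, 639, 315, 542 and 549 CPM in *Mtmr2* KO and 770.2, 574, 546 and 406 CPM in niacin-treated nerves, with overlap between all groups. *Col5a3* (chr9:20770050-20815067, minus strand) was at 1026, 979, 856 and 787 CPM in WT, 812, 423, 1018 and 628 CPM in *Mtmr2* KO and 353, 533, 443 and 534 CPM in niacin-treated nerves. All niacin libraries were below all WT libraries for *Col5a1* and *Col5a3*, and library 4503 was within the WT range for *Col5a3* but not for *Col5a1*. *Col5a3* differed by -0.97 ± 0.24 (SE, adjusted p = 0.0833) between niacin and WT, by -0.63 ± 0.24 (SE, adjusted p = 0.168) between niacin and *Mtmr2* KO and by -0.34 ± 0.24 (SE, adjusted p = 0.477) between *Mtmr2* KO and WT. Its transcript has 61.6% GC, and with the correction its differences with niacin were -0.42 against WT and -0.28 against *Mtmr2* KO. *Col5a1* differed by -0.72 ± 0.30 (SE, adjusted p = 0.230) between *Mtmr2* KO and WT, the smallest p of the class there, and by -0.26 without libraries 4502 and 4503.

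The other 5 fibrillar genes were at lower levels. *Col11a1* and *Col11a2*, whose chains join with type V in mixed fibrils, were at 64.9 ± 11.74 and 8.18 ± 1.42 CPM in WT, and *Col24a1* and *Col27a1* at 38.7 ± 15.1 and 34.4 ± 1.83 CPM. *Col2a1*, the cartilage collagen, was at 1.83 to 5.08 CPM in WT, 0.761 to 4.42 CPM in *Mtmr2* KO and 1.60 to 2.45 CPM with niacin. None of them had an adjusted p under 0.204 in any comparison. Among the 11 fibrillar genes, 10 had a lower mean in *Mtmr2* KO than in WT, the exception being *Col24a1* (0.38 ± 0.31). With niacin against WT 10 had a lower mean, the exception being *Col27a1* (0.11 ± 0.21), and 7 with GC content and length corrected.

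In the basement membrane class, *Col4a1* and *Col4a2*, whose chains form the type IV network of nearly all basement membranes, had lower means with niacin than in either other group. *Col4a1* (chr8:11198423-11312826, minus strand) was at 2079.7, 1609, 1802 and 1411 CPM in WT, 1667, 677, 2411 and 1095 CPM in *Mtmr2* KO and 712, 929, 692 and 422 CPM in niacin-treated nerves. *Col4a2* (chr8:11312805-11449287, plus strand) was at 1435, 1118, 1188 and 939.6 CPM in WT, 1204, 339.9, 1602 and 825 CPM in *Mtmr2* KO and 482, 643, 469 and 269 CPM in niacin-treated nerves. All 4 niacin libraries lay below all WT libraries for both genes, and the *Mtmr2* KO libraries ran from the level of niacin in library 4502 to above WT in the library labelled *Mtmr2* KO 4503. Niacin differed from WT by -1.32 ± 0.34 (SE, adjusted p = 0.0847) for *Col4a1* and -1.33 ± 0.38 (SE, adjusted p = 0.0972) for *Col4a2* in edgeR. Against *Mtmr2* KO the differences were -1.09 ± 0.34 (SE, adjusted p = 0.106) and -1.09 ± 0.38 (SE, adjusted p = 0.135). *Mtmr2* KO and WT differed by -0.24 ± 0.33 and -0.24 ± 0.37, less than 1 SE each. Over 24 alternative fits these 2 values ran from -0.59 to -0.0046 and from -0.57 to 0.045, and *Col4a2* turned without library 4502. For niacin, DESeq2 on the 12 libraries gave adjusted p = 0.00530 and 0.0119 against WT and 0.0234 and 0.0448 against *Mtmr2* KO. With GC content and length corrected, the values against WT were -0.88 and -0.81 and those against *Mtmr2* KO -0.78 and -0.71. Without niacin libraries 4506 and 4507 the values against WT were -1.62 and -1.66. The summed level of 5 endothelial marker genes, cells that also make type IV collagen, was 437 to 483 CPM in WT, 187 to 535 CPM in *Mtmr2* KO and 222 to 335 CPM with niacin, with 4502 and 4503 the lowest and highest of *Mtmr2* KO. Of 6 vascular smooth muscle marker genes, from cells of the vessel wall, 5 had a lower mean in niacin-treated than in WT nerves (median -0.74) and 5 in *Mtmr2* KO than in WT (median -1.01). Their summed level was 539.99 to 1223 CPM in WT, 478 to 1487 CPM in *Mtmr2* KO and 569 to 1019.7 CPM with niacin. All 9 myelinating Schwann cell marker genes had a lower mean with niacin than in *Mtmr2* KO (median -0.21). The part of these cells in the values of the type IV genes was not tested.

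*Col4a3* and *Col4a4*, known from the kidney glomerulus, were at 14.3 ± 3.98 and 31.99 ± 5.23 CPM in WT. With niacin they differed from WT by -0.89 ± 0.30 (SE, adjusted p = 0.123) and -0.53 ± 0.21 (SE, adjusted p = 0.160), with groups that did not overlap, and by -0.70 and -0.33 with GC content and length corrected. *Col4a5* (chrX:141475385-141689234, plus strand) was at 61.7, 43.3, 51.8 and 55.3 CPM in WT, 32.98, 13.6, 29.1 and 30.9 CPM in *Mtmr2* KO and 43.2, 34.3, 35.9 and 21.2 CPM in niacin-treated nerves. All *Mtmr2* KO libraries and all niacin libraries lay below the lowest WT library. Its difference was -0.99 ± 0.26 (SE, adjusted p = 0.0993) for *Mtmr2* KO against WT, -0.73 without libraries 4502 and 4503, and DESeq2 gave an adjusted p of 0.0154. *Col4a6* was low, with 4 to 56 counts in a library, at 1.23, 0.682, 2.03 and 1.91 CPM in WT and 0.452, 0.717, 0.576 and 0.192 CPM in *Mtmr2* KO, where it differed by -1.57 ± 0.45 (SE, adjusted p = 0.117). With niacin, *Col4a5* and *Col4a6* differed from *Mtmr2* KO by 0.33 ± 0.26 (SE, adjusted p = 0.489) and 1.12 ± 0.46 (SE, adjusted p = 0.195). Over 24 alternative fits the value for *Col4a5* ran from 0.06 to 0.505.

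**Figure D4:**
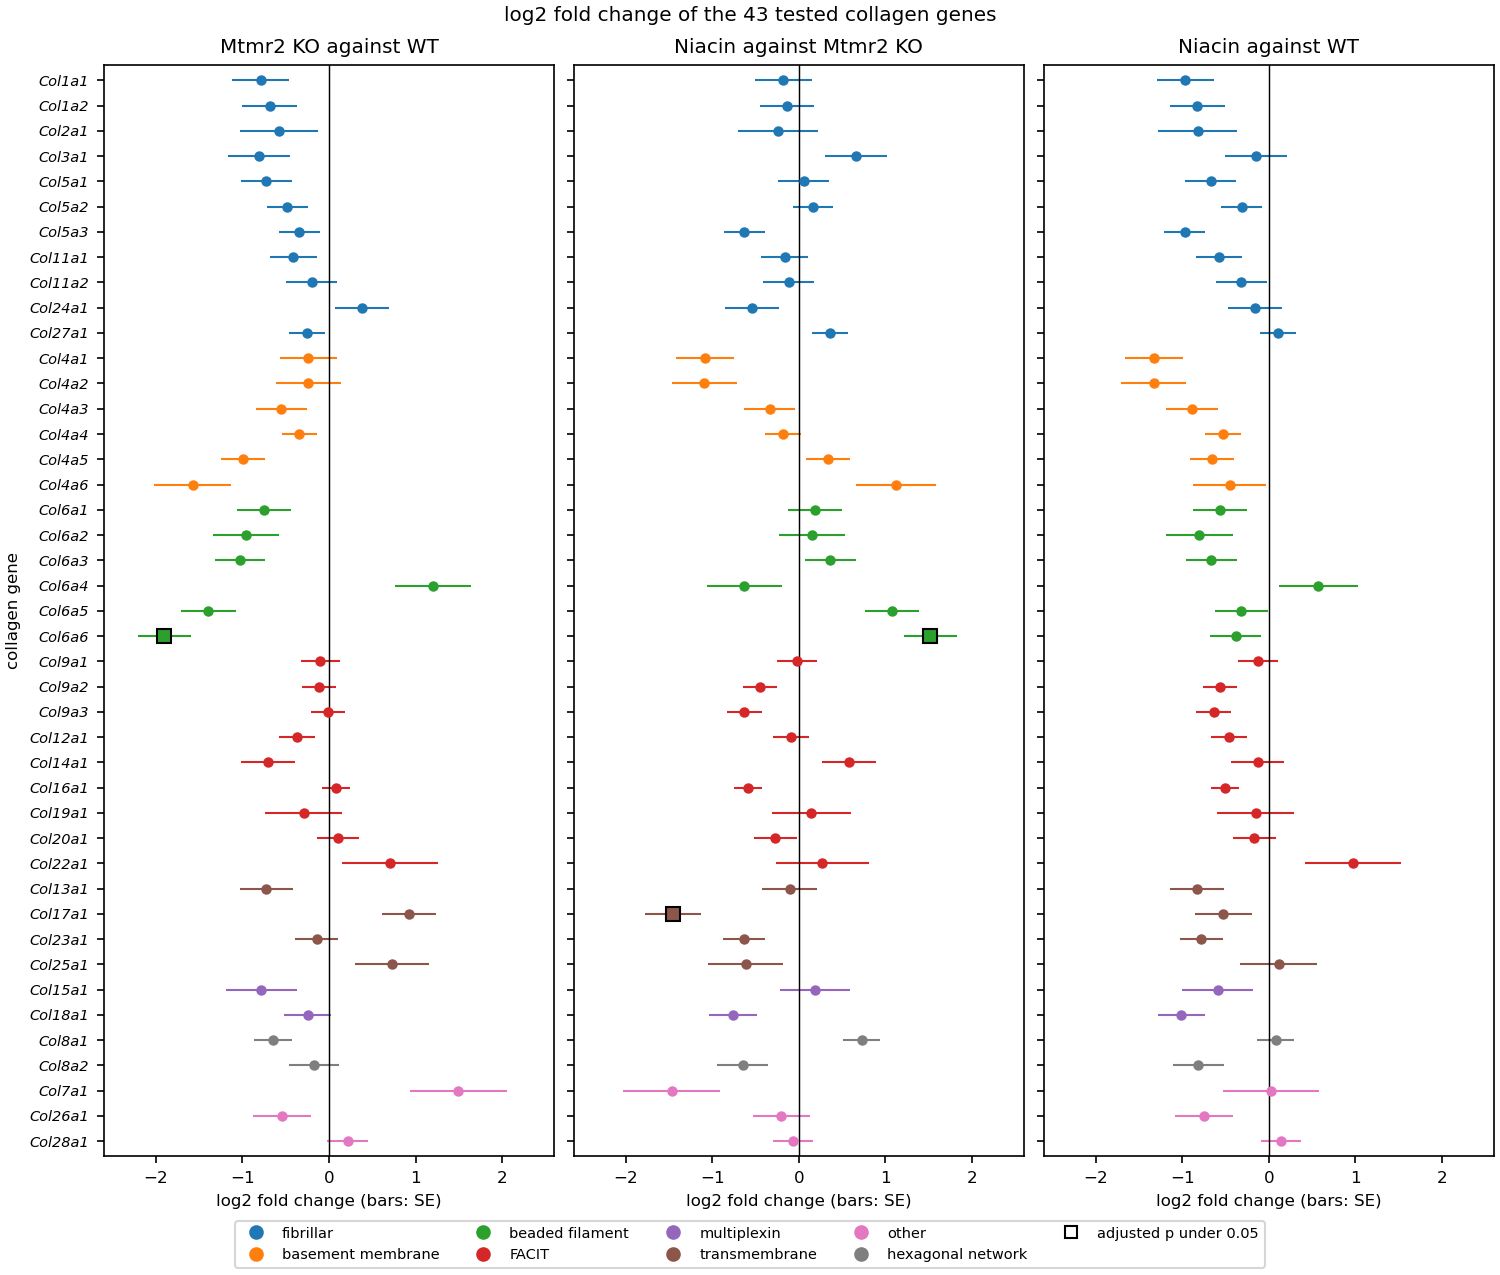
log2 fold change with its SE (edgeR, 4 against 4 libraries) of the 43 tested collagen genes, in order of class and coloured by class, in the 3 comparisons; squares mark an adjusted p under 0.05. The squares are Col6a6 in Mtmr2 KO against WT (-1.90) and in niacin against Mtmr2 KO (1.52), and Col17a1 in the latter (-1.46); niacin against WT has none.

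Of the multiplexins, which sit in or beside basement membranes, *Col15a1* was at 803, 547, 635 and 547 CPM in WT, 613, 162, 155 and 545 CPM in *Mtmr2* KO and 528, 451, 457 and 245 CPM in niacin-treated nerves. Libraries 4502 and 4503 were the lowest of all 12. The difference from WT was -0.78 ± 0.41 (SE, adjusted p = 0.342), and -0.12 without these 2 libraries. *Col18a1* was at 202, 171, 188 and 171 CPM in WT, 217, 67.8, 192 and 139.8 CPM in *Mtmr2* KO and 102, 102, 94.3 and 65.4 CPM in niacin-treated nerves. For both multiplexins all niacin libraries lay below all WT libraries. *Col18a1* differed there by -1.01 ± 0.28 (SE, adjusted p = 0.0938) and by -0.52 with GC content and length corrected. *Col15a1* differed there by -0.59, and by -0.73 to -0.21 over 24 alternative fits. *Mtmr2* KO against WT was -0.25 ± 0.27 for *Col18a1*. *Col15a1* and *Col4a1* parted most in the library labelled *Mtmr2* KO 4503, where the ratio of *Col4a1* to *Col15a1* (CPM per kb) was 12.2 against 2.02 to 2.30 in WT and 1.05 to 1.61 with niacin.

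Among the transmembrane collagens, *Col17a1* (chr19:47646344-47692094, minus strand), a hemidesmosome collagen of epithelia, was the second gene that passed the test. It was at 1.38, 1.47, 1.23 and 1.26 CPM in WT, 1.77, 2.597, 4.10 and 1.68 CPM in *Mtmr2* KO and 0.587, 1.34, 0.821 and 0.942 CPM in niacin-treated nerves. These are low levels, with at most 128 counts in a library, and the highest was in library 4503. Every *Mtmr2* KO library lay above every other library. Niacin differed from *Mtmr2* KO by -1.46 ± 0.33 (SE, adjusted p = 0.0459). *Mtmr2* KO differed from WT by 0.93 ± 0.31 (SE, adjusted p = 0.167), and by 0.38 to 1.145 over 24 alternative fits. With GC content and length corrected the difference with niacin was -1.27 (adjusted p = 0.0508). Without libraries 4502 and 4503 it was -0.90 (adjusted p = 0.0683), so the call did not hold in either. It was kept without library 4502 or 4504 and lost without any other single library, with values of -1.71 to -1.12. *Col23a1*, the most abundant of the class, was at 393, 347, 384 and 332 CPM in WT, 386, 181, 418 and 333 CPM in *Mtmr2* KO and 235, 282, 191 and 142 CPM in niacin-treated nerves. Its niacin libraries lay below all WT libraries, with a difference of -0.78 ± 0.25 (SE, adjusted p = 0.114) and of -0.44 corrected for GC content and length. *Col13a1* and *Col25a1*, both known from neuromuscular and neuronal contacts, stayed at or below 2.41 CPM.

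The FACIT genes, whose products decorate fibrils, were led by *Col14a1*, at 637, 418, 532 and 477 CPM in WT, 388, 199, 177 and 502 CPM in *Mtmr2* KO and 646, 488, 438 and 317 CPM in niacin-treated nerves. Libraries 4502 and 4503 were the lowest, and the groups overlapped in every comparison. Its differences were -0.71 ± 0.31 (SE, adjusted p = 0.266) for *Mtmr2* KO against WT, the smallest p of the class there, and 0.58 ± 0.31 for niacin against *Mtmr2* KO, and without these libraries -0.21 and 0.07. *Col16a1* was at 194, 193, 187 and 178 CPM in WT, 222, 134, 233 and 208 CPM in *Mtmr2* KO and 125, 152, 124 and 129.7 CPM in niacin-treated nerves. Niacin libraries lay below all WT libraries, with a difference of -0.50 ± 0.16 (SE, adjusted p = 0.114), but the difference was 0.02 with GC content and length corrected. *Col9a3*, a type IX chain, was at 11.8, 10.1, 9.10 and 10.7 CPM in WT, 11.2, 6.67, 12.1 and 11.4 CPM in *Mtmr2* KO and 5.28, 7.23, 6.02 and 8.27 CPM in niacin-treated nerves. It and *Col9a2*, with 59.2% and 62.7% GC, also had niacin libraries below all WT libraries (-0.64 ± 0.20 and -0.56 ± 0.20), which were -0.28 and -0.14 corrected. *Col12a1* was at 82.7 ± 14.2 CPM in WT, and *Col9a1*, *Col19a1*, *Col20a1* and *Col22a1* were at 14 CPM or less in every WT library.

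Of the remaining genes, *Col8a1*, a vessel and basement membrane collagen, was at 177, 144, 181 and 127 CPM in WT, 114, 87.3, 71.5 and 129 CPM in *Mtmr2* KO and 226, 161, 156 and 123 CPM in niacin-treated nerves. *Mtmr2* KO differed from WT by -0.65 ± 0.21 (SE, adjusted p = 0.163) and niacin from *Mtmr2* KO by 0.73 ± 0.22 (SE, adjusted p = 0.0957). The groups overlapped in both. DESeq2 gave an adjusted p of 0.0351 for the second, the only 1 of 24 alternative fits that called it. Over these fits the first value ran from -0.79 to -0.37 and the second from 0.44 to 0.87. *Col8a2* was at 23.1, 24.1, 24.5 and 22.2 CPM in WT, 29.6, 8.82, 23.6 and 21.4 CPM in *Mtmr2* KO and 15.3, 17.4, 12.2 and 8.40 CPM in niacin-treated nerves. Its niacin libraries lay below all WT libraries, with a difference of -0.82 ± 0.29 (SE, adjusted p = 0.136) and of -0.39 corrected for GC content and length. *Col7a1*, which forms the anchoring fibrils of skin, was at 14.8, 28.9, 13.2 and 14.1 CPM in WT, 24.2, 39.7, 116 and 19.9 CPM in *Mtmr2* KO and 5.97, 20.5, 13.2 and 32.4 CPM in niacin-treated nerves. The library labelled *Mtmr2* KO 4503 held the highest level, and the difference from WT was 1.496 ± 0.559 (SE, adjusted p = 0.200) with it and 0.65 without it. *Col26a1* was at 157, 99.3, 122 and 110.1 CPM in WT, 135, 35.1, 69.01 and 95.2 CPM in *Mtmr2* KO and 99.2, 73.95, 72.7 and 44.8 CPM in niacin-treated nerves. Its niacin libraries also lay below all WT libraries, with a difference of -0.75 ± 0.33 (SE, adjusted p = 0.189) and of -0.37 corrected. *Col28a1*, a collagen known from peripheral nerve and Schwann cells, was at 163 ± 30.6, 189.6 ± 45.7 and 181 ± 53.3 CPM, with adjusted p of 0.662, 0.890 and 0.716 in the 3 comparisons.

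Genes that modify, process, bind or degrade collagen were examined as 6 lists of 77 genes, of which 73 were tested. In *Mtmr2* KO against WT, 56 (76.7%) had a lower mean, against 46.0% of all tested genes, and 17 a higher one. The median log2 fold change was -0.33 against 0.03 for all genes. None passed in edgeR (background 0.0464% higher and 0.220% lower). At an unadjusted p of 0.05, 3 were higher (background 9.35%) and 23 lower (background 7.90%), while DESeq2 on the 12 libraries called 1 higher (background 1.50%) and 10 lower (background 2.27%). *Creb3l1*, a transcription factor for collagen production, was closest at -1.19 ± 0.23 (SE, adjusted p = 0.0519). In niacin against *Mtmr2* KO, 52 (71.2%) had a higher mean, against 45.9% of all tested genes, and 21 a lower one. The median was 0.22 against -0.04 for all genes, and 1 passed, in the lower direction (background 0.730%). At an unadjusted p of 0.05, 16 (21.9%) were higher and 4 (5.5%) lower, against 8.01% and 12.1% of all tested genes, and DESeq2 called 6 higher (background 2.98%) and 2 lower (background 3.44%). The gene that passed in edgeR was *Lox*, the enzyme that cross-links fibrils, at 871, 869.9, 903 and 690.0 CPM in WT, 1036, 894, 2343 and 617 CPM in *Mtmr2* KO and 451, 561, 339 and 283 CPM in niacin-treated nerves. Niacin libraries lay below all others for *Lox*, and the library labelled *Mtmr2* KO 4503 was far above the rest. Its difference was -1.58 ± 0.35 (SE, adjusted p = 0.0457) against *Mtmr2* KO and -1.03 ± 0.34 (SE, adjusted p = 0.123) against WT. Without libraries 4502 and 4503 the first was -1.03 (adjusted p = 0.0231), and with GC content and length corrected -1.64 (adjusted p = 0.0284). The call held in 2 of 8 fits that left out a library of the groups compared, in which *Lox* ran from -1.80 to -1.05. Without libraries 4502 and 4503 the median of *Mtmr2* KO against WT was -0.12, with 20 higher and 53 lower, and niacin against *Mtmr2* KO had 39 higher and 34 lower (median 0.02). The median with niacin against WT turned, once corrected for GC content and length, from -0.16 to 0.04.

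By list, in *Mtmr2* KO the mean was lower for 17 of 22 genes of modification and folding, 13 of 14 of propeptide removal and cross-linking, 7 of 11 receptors, 9 of 12 fibril-binding proteins, 7 of 10 proteases and inhibitors and 3 of 4 TGF-beta genes. With niacin against *Mtmr2* KO it was higher for 16, 12, 8, 8, 7 and 1 of these, and with niacin against WT it was higher for 8, 5, 5, 5, 4 and 0. None of the 73 passed in edgeR in this last comparison (background 0.00% in each direction). At an unadjusted p of 0.05, 7 (9.6%) were higher and 15 (20.5%) lower, against 10.1% and 14.6% of all tested genes, and DESeq2 called 1 higher (background 1.59%) and 8 lower (background 5.97%). The most abundant gene of each list per kilobase was, in that order, *Serpinh1*, the collagen chaperone, at 738 ± 97.95 CPM in WT, *Lox* at 834 ± 96.8, *Itgb1*, the shared beta chain of collagen-binding integrins, at 771 ± 62.1, *Sparc*, a collagen-binding matrix protein, at 11061 ± 953, *Timp2*, a protease inhibitor, at 859 ± 33.7 and *Tgfb3* at 46.8 ± 6.71 CPM. *Serpinh1* was at 576, 367, 265 and 717 CPM in *Mtmr2* KO and 759, 598, 641 and 436 CPM with niacin, lowest in library 4503. *Sparc* was at 12080.3 ± 1798 and 10686 ± 2328 CPM, and its groups overlapped.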

How the data were processed

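Whole sciatic nerve RNA was sequenced as poly(A)-selected 2x150 HiSeq libraries, 1 nerve per library. The authors aligned reads with STAR to mm10 (GRCm38) and deposited raw counts per gene for each of 12 libraries; the processing notes also list CASAVA 1.9, while for the counting program, annotation release, strand setting and STAR version the sources used here name nothing. Without a stated strand setting, overlapping genes such as *Col4a1* and *Col4a2* may share reads. The deposited DESeq2 tables hold the authors' fold changes and p-values, of which only the symbol column was read, to pair symbols with Ensembl identifiers.

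Counts were tested with edgeR 4.0.16 (quasi-likelihood F-test, filterByExpr, TMM, no covariates) in R 4.3.3 over all 12 libraries, with p-values adjusted by Benjamini-Hochberg over 17257 genes and a threshold of 0.05. An SE is the log2 fold change divided by the square root of F. Levels are CPM scaled by TMM, with no interval beyond the SD of 4 libraries. The exact two-sided permutation test used all 70 ways of splitting 8 libraries. Each library is 1 mouse. Transcript length and GC content are those of the GENCODE M21 principal transcript. Alternatives used DESeq2 1.42.0, limma 3.58.1 voom with quality weights, other scalings, filters and sample sets, *Xist* level as a covariate, and omission of each library. Scripts were tested on simulated counts with known fold changes.

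The members, classes and gene lists were chosen with earlier results of these data known. Genes given in every library were 12 abundant fibrillar, type IV, type VI and type XV genes, genes called in a comparison, and, per class, the most abundant gene and the gene with the smallest p in each comparison. *Col6a5*, the neighbour of *Col6a6*, was given as well outside this rule and is not among the 24 named genes followed through the refits. A planned description of protein repeats was not made here.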

Additional observations from a re-analysis of the deposited data

Results flagged for a closer look

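Within groups of 4 libraries, 7 levels of the 43 tested collagen genes stood apart by Dixon's test, which compares the gap to the nearest library with the group's range. Among 129 such tests chance flags about 1 in 20. *Col5a1* was at 870.4 CPM and *Col6a3* at 445 CPM in WT library 4497, the highest of their group. *Col24a1* was at 61.4 CPM, *Col7a1* at 28.9 CPM and *Col20a1* at 14.0025 CPM in WT library 4498, also the highest. *Col9a3* was at 6.67 CPM in Mtmr2 KO library 4502, the lowest of its group. *Col13a1* was at 1.98 CPM in the library labelled Mtmr2 KO 4503, the highest of its group.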

How the results depend on the processing

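Counts of collagen calls changed with the fit, as did the share of all genes called, given in parentheses as the background. For Mtmr2 KO against WT, 1 gene was called lower in the fit described (0.220%) and 5 by DESeq2 on 12 libraries (2.27%), 4 by DESeq2 on the 2 groups (1.67%), 4 without a filter on low counts (0.691%) and 2 with GC content and length corrected (0.811%). It was 0 with edgeR on the 2 groups (0.00%), without libraries 4502 and 4503 (0.0563%) or without 4506 and 4507 (0.0323%), and 0 to 3 when single libraries were left out (0.00% to 1.45%). For niacin against Mtmr2 KO, the count called higher was 1 (0.695%) and 3 by DESeq2 on 12 libraries (2.98%), 2 without a filter (0.921%), 0 with edgeR on the 2 groups or without 4506 and 4507 (0.00% in both), and 0 to 1 when single libraries were left out (0.00% to 9.85%). The count called lower there was 1 (0.730%) and 4 by DESeq2 on 12 libraries (3.44%), 9 by limma-voom (6.95%), 9 without 4502 and 4503 (7.92%), and 0 to 10 when single libraries were left out (0.00% to 13.7%). It was 0 with GC content and length corrected (1.45%), plain library totals (0.458%), *Xist* as a covariate (0.139%), edgeR on the 2 groups, or without 4506 and 4507 (0.00% in both). For niacin against WT, 0 genes were called lower in the fit described (0.00%), 9 by DESeq2 on 12 libraries (5.97%), 24 by DESeq2 on the 2 groups (20.9%), 24 by limma-voom (21.5%), 22 with edgeR on the 2 groups (17.6%), 22 without 4502 and 4503 (15.8%), 4 without a filter (0.632%), and 0 to 15 when single libraries were left out (0.00% to 12.7%). limma-voom also called 1 gene higher there (20.8%). The fits corrected for GC content and length and those without pairs of libraries were chosen after seeing the data. Of 72 log2 fold changes (24 named genes in 3 comparisons), 18 changed direction in at least 1 refit, 9 of them in niacin against Mtmr2 KO. None of these was called in the fit described. With the correction the values that turned were *Col9a3* (0.15) in Mtmr2 KO against WT, *Col1a1* (0.15), *Col1a2* (0.11) and *Col26a1* (0.053) in niacin against Mtmr2 KO, and *Col3a1* (0.091), *Col14a1* (0.054) and *Col16a1* (0.021) in niacin against WT. Without 4502 and 4503 they were *Col9a3* (0.12) and *Col8a2* (0.13) in Mtmr2 KO against WT and *Col5a1* (-0.42), *Col5a2* (-0.061), *Col6a1* (-0.29), *Col6a2* (-0.47), *Col6a3* (-0.14) and *Col15a1* (-0.47) in niacin against Mtmr2 KO. With limma-voom they were *Col9a3* (0.12) in Mtmr2 KO against WT, *Col5a1* (-0.16), *Col5a2* (-0.0026), *Col6a1* (-0.10), *Col6a2* (-0.16) and *Col15a1* (-0.074) in niacin against Mtmr2 KO, and *Col8a1* (-0.034) and *Col7a1* (-0.13) in niacin against WT. *Col9a3* in Mtmr2 KO turned with at least 10 counts in every library (0.012), and *Col7a1* in niacin against WT with DESeq2 on 12 libraries (-0.0011), DESeq2 on the 2 groups (-0.0042) and no filter (-0.044). With single libraries left out, those that crossed 0 were *Col4a2* (-0.57 to 0.045), *Col9a3* (-0.10 to 0.15), *Col8a2* (-0.39 to 0.079) and *Col23a1* (-0.28 to 0.055) in Mtmr2 KO against WT, *Col1a1* (-0.41 to 0.16), *Col1a2* (-0.39 to 0.11), *Col5a1* (-0.20 to 0.35), *Col5a2* (-0.019 to 0.30), *Col6a1* (-0.065 to 0.39), *Col6a2* (-0.13 to 0.45), *Col15a1* (-0.070 to 0.55) and *Col26a1* (-0.47 to 0.13) in niacin against Mtmr2 KO, and *Col3a1* (-0.43 to 0.053), *Col14a1* (-0.32 to 0.019), *Col8a1* (-0.11 to 0.20) and *Col7a1* (-0.42 to 0.36) in niacin against WT. Of 15 class medians 6 turned: for FACIT genes in Mtmr2 KO (0.04 with the correction, 0.06 without 4502) and niacin against WT (0.0214 with the correction), and in niacin against Mtmr2 KO for all collagen genes (0.05 with the correction, 0.02 without 4501), fibrillar genes (0.15 with the correction, 0.11 without 4501, 0.01 without 4508), basement membrane genes (0.01 without 4502 and 4503, 0.03 without 4503) and beaded filament genes (-0.01 without 4502 and 4503). Without 4502 and 4503, 33 of the 72 values moved by more than 1.5 times. Of 1728 refitted values 1503 kept their direction and side of the threshold, 130 passed it newly and 38 no longer passed. The cause was not tested. Low counts, at most 128 in any library, limit *Col10a1*, *Col6a4*, *Col22a1*, *Col25a1*, *Col19a1*, *Col4a6*, *Col13a1*, *Col17a1* and *Col9a1*. No paired analysis was possible because the labels give each library a number of its own, shared by no other group.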
